A study of Rattus norvegicus with 2 samples.

Results

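The S100 genes encode small calcium-binding proteins with EF-hand motifs that work as dimers, inside cells as partners of annexins, myosins and other proteins and, once released, as alarm signals at receptors such as Ager and Tlr4. The 7 genes described here are S100a8, S100a9, S100a1, S100a4, S100a6, S100a10 and S100a11, found by symbol among the 42172 genes of the count matrices, and all 7 lie on rat chromosome 2. S100a8 and S100a9 form calprotectin, an abundant cytosolic protein of neutrophils that is classically used as a marker of their arrival in inflamed tissue. S100a4, S100a6, S100a10 and S100a11 are found in many cell types, where they take part in cell movement, membrane repair and vesicle traffic, and S100a1 is known mainly from muscle and some epithelia.

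Levels were measured in dissociated lung cells of rats kept free of specific pathogens, in 1 library of explosion animals (treatment explosion, a gas explosion) and 1 library of control animals not exposed to it, with 10x Chromium 3' chemistry. The labels give neither strain, sex, age and time after exposure nor how many animals a library holds. With 1 library per group no difference between the groups has a replicate check, no test was run, and every interval below is a 95% interval that covers counting error only. A level is given in CPM, the count of unique molecular identifiers (UMIs) of a gene scaled to all UMIs of that cell class in that library.

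The explosion library was far shallower than the control library. Its 12642 barcodes shared 9017416 UMIs (538.5 for the median barcode), against 139486248 UMIs over 21117 control barcodes (4917 for the median barcode). After filters and removal of called doublets 11845 explosion and 19231 control cells were kept, and 85 barcode sequences occurred in both libraries. The cells fell into 30 clusters built without any S100 gene, of which 2 stayed unnamed and the rest gave 15 classes. Names mean cells like the named type and rest on marker lists without S100 genes. Lung identity was visible in type 2 alveolar-like cells led by Sftpc and in secretory-like cells led by Scgb1a1 and Scgb3a2. Marco, an alveolar macrophage marker, had 0 UMIs in macrophage-like cells of both libraries, while Mrc1, Siglec1 and Fabp4 were detected there. Most cells of several classes sat in different clusters in the explosion and the control library, in cluster 5 against clusters 4, 7 and 19 for macrophage-like cells, 0 against 22 for mesothelial-like, 8 against 15 for T-like, 16 against 27 for B-like and 1 against 28 for monocyte-like cells. The 8 classes with at least 200 cells in each library were compared.

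**Figure D1:**
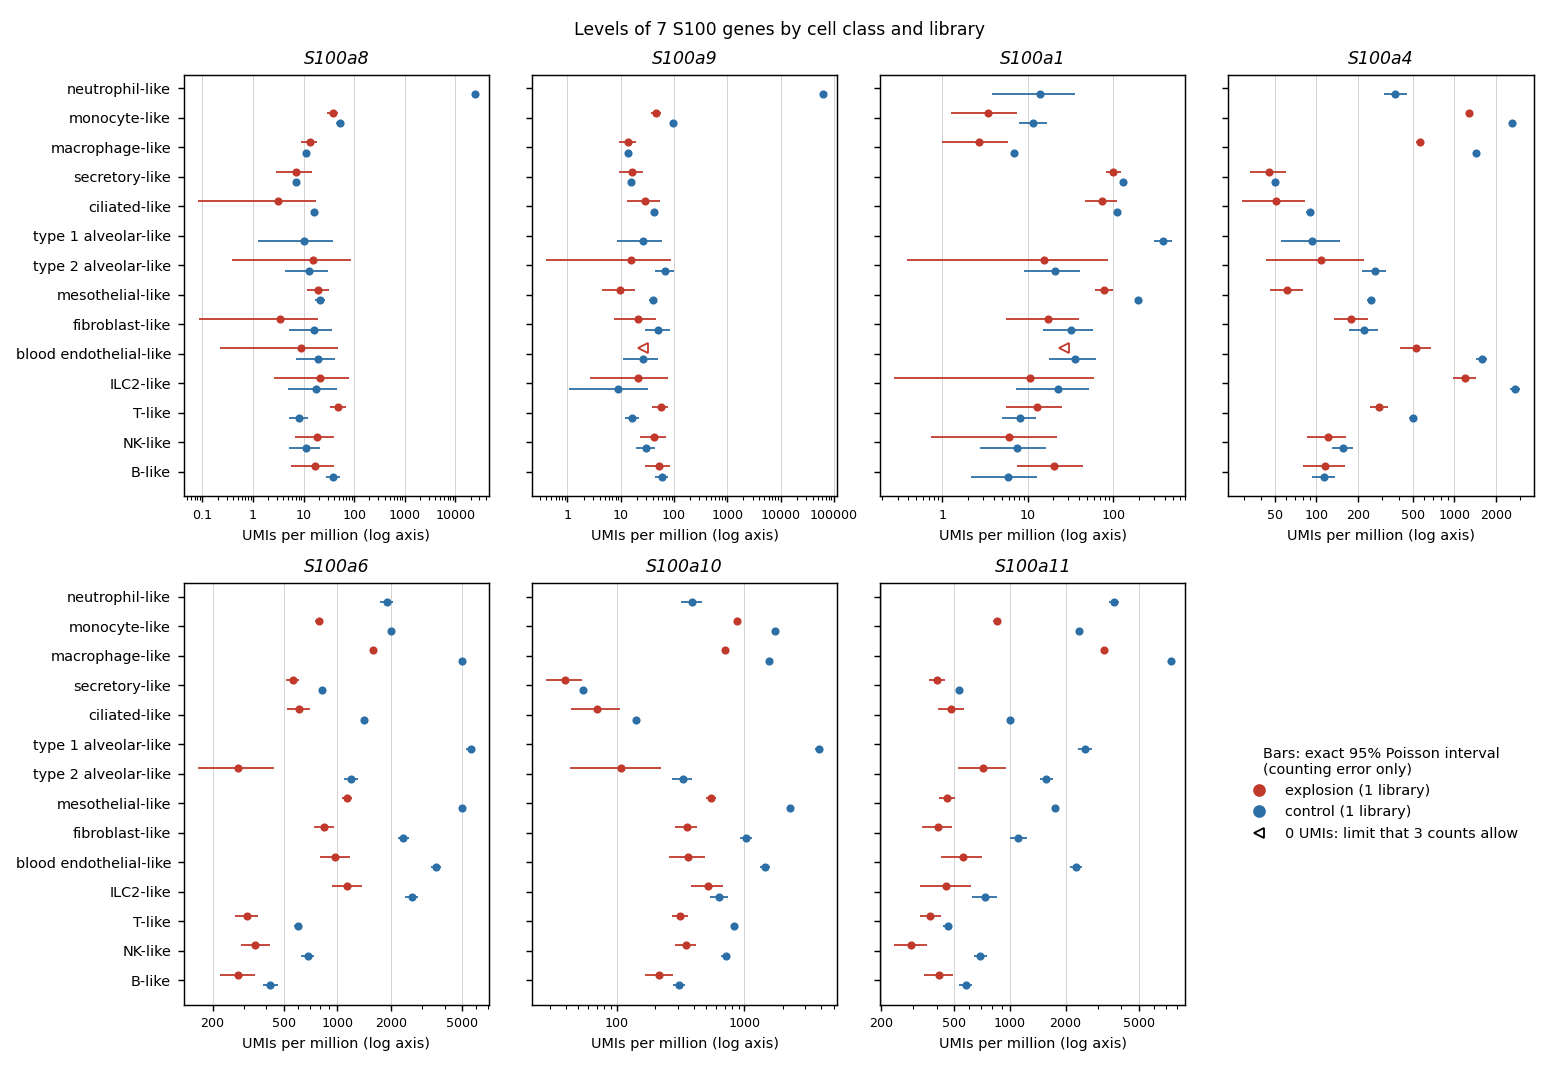
Level of each S100 gene in CPM (log axis) by cell class, explosion above control, 1 library each, for classes of at least 50 cells; bars are exact 95% Poisson intervals and open triangles mark the limit that 3 counts allow where a gene had 0 UMIs. S100a8 and S100a9 stand at 24101 and 62821 CPM in control neutrophil-like cells and under 100 CPM in all other classes, while S100a4, S100a6, S100a10 and S100a11 spread over most classes.

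S100a8 and S100a9 were neutrophil genes in the control library, and hardly any such cells were recovered in the explosion library. The explosion library held 3 neutrophil-like cells with 11 UMIs of S100a8 and 24 of S100a9 between them, 31 of which came from 1 cell, against 297 such cells in the control library. In these control cells S100a8 reached 24101 CPM (23537 to 24675) and S100a9 62821 CPM (61908 to 63743), with a median of 16 and 47 UMIs per cell and the highest cell at 307 and 678. The control neutrophil-like cells carried 83.1% of the S100a8 and 88.2% of the S100a9 UMIs of all kept control cells. Only 15 of the 297 lacked a UMI of S100a8 and 3 lacked one of S100a9. When each cell was thinned to 500 UMIs, 92.9% (89.4 to 95.6) and 98.7% (96.6 to 99.6) of them kept a UMI of S100a8 and of S100a9. Over all kept cells S100a8 stood at 21.8 CPM in the explosion library and 70.0 CPM in the control library, and S100a9 at 29.4 and 172 CPM. No fold between the libraries is given for neutrophil-like cells, since 3 cells do not describe a class.

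Other neutrophil genes accompanied the pair, some of which had also served as markers of the class. Of 14 granule and maturation genes in control neutrophil-like cells, Retnlg (1393 CPM), Chi3l1 (1250 CPM) and Camp, an antimicrobial peptide (521 CPM), were the highest, while Mpo, Prtn3, Bpi and Ltf had 0 UMIs, Lcn2 had 1 and Elane had 9. Of these 14 genes 5 had at least 30 UMIs in macrophage-like and 3 in monocyte-like cells, and in each class 1 was past 2-fold lower and 0 higher, where 6.44% of all macrophage-like genes were lower and 32.1% higher, and 10.1% and 24.9% of all monocyte-like genes. Over the 27 pairs of class and library with at least 50 cells, the pattern of S100a8 was most like that of Cxcr2, a chemokine receptor of neutrophils (r = 0.98 across classes), among 6489 genes that reached 100 CPM somewhere, and S100a9 was most like S100a8 (r = 0.96). These correlations include the 1 control neutrophil-like unit, far above the others for both genes, and are descriptions only.

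Some explosion droplets with high S100a8 and S100a9 lay below the cell filters. The 200 explosion barcodes removed for few genes or a high mitochondrial share had 19 S100a8 and 48 S100a9 UMIs, or 364.9 and 921.9 CPM, against 0 and 1 UMI (0 and 49.1 CPM) in the 33 removed control barcodes. Of the 67 explosion UMIs, 63 came from 3 barcodes, and the top barcode held 15 and 25 of its 246 UMIs. A gate on neutrophil markers in place of clusters found 5 kept explosion cells, with 0 UMIs of either gene, against 135 kept control cells at 23258 and 57965 CPM. The shallowest deposited barcodes carried 231 UMIs in the explosion and 500 in the control library, and the part of depth and filtering in the small number of explosion neutrophil-like cells was not tested.

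Outside neutrophil-like cells the pair was sparse, and much of it came from few cells. There were 171 S100a8 and 222 S100a9 UMIs in 11842 explosion cells, against 1412 and 2430 in 18934 control cells. Cells with at least 5 UMIs of the pair, 14 in the explosion and 50 in the control library, held 26.2% and 45.0% of those UMIs. In thinned macrophage-like cells 0.618% of explosion and 0.633% of control cells had a UMI of S100a8, beside 1.28% (0.0325 to 6.94, 78 cells) and 0.608% (0.198 to 1.41, 822 cells) of B-like cells, a type that should lack the gene, all at 500 UMIs. The intervals of the macrophage-like and B-like shares overlapped in each library, so macrophage-like S100a8 was not told apart from the level in B-like cells. For S100a9 the thinned shares were 0.618% and 0.565% of macrophage-like and 2.56% (0.312 to 8.96) and 1.82% (1.02 to 2.99) of B-like cells, in which 2 control cells held 63 of the 98 control UMIs of the pair. Macrophage-like levels stood at 13.1 against 11.1 CPM for S100a8 and 13.6 against 13.98 CPM for S100a9 (ratios 1.18, 0.785 to 1.72, and 0.970, 0.650 to 1.40).

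The number of S100a9 UMIs per S100a8 UMI differed between some groups of cells, by intervals that take each UMI as independent. It was 2.61 (2.54 to 2.68) in control neutrophil-like cells, and 2.29 (0.890 to 6.57) in explosion and 2.15 (1.86 to 2.50) in control secretory-like cells. Among control secretory-like cells, 12 with at least 5 UMIs of the pair held 369 of its 845 UMIs. Cluster 6, monocyte-like cells led by Fcnb, with Vcan and Ccr2, the markers of classical monocytes, had 0.585 (0.338 to 0.992) in the explosion library and 0.474 (0.309 to 0.713) in the control library. Dendritic cells were the runner-up name of cluster 6, and RT1-Da was among its leading genes. A finer clustering (resolution 2) gave a dendritic-like cluster of 247 explosion and 171 control cells. Beside it stood an Fcnb-led monocyte-like cluster of 765 and 141 cells. How many dendritic cells cluster 6 holds was not tested. S100a8 UMIs thus outnumbered S100a9 UMIs in cluster 6 of both libraries and the reverse held in control neutrophil-like cells, with intervals that did not overlap. In cluster 6 the cells with at least 5 UMIs of the pair, 2 in the explosion and 4 in the control library, held 10 of 65 and 44 of 112 UMIs. A value below 1 was not particular to cluster 6, since the unnamed control cells had 0.389 (0.194 to 0.739). The remaining monocyte-like cells, with Treml4, Pou2f2 and Spn among the leading genes of cluster 1 in the explosion library and Treml4 and Gngt2 among those of cluster 28 in the control library, had 2.28 (1.40 to 3.81) and 3.64 (2.71 to 4.95). Of the 269 UMIs of the pair in control cluster 28, 208 came from 5 cells.

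**Figure D2:**
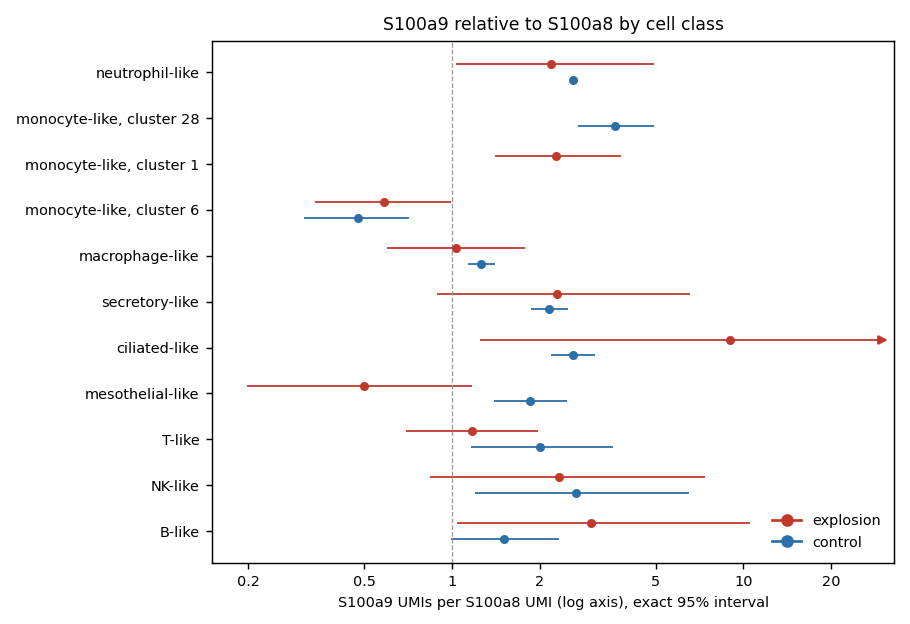
S100a9 UMIs per S100a8 UMI (log axis) by cell class, explosion above control, with exact 95% intervals; units with under 10 UMIs of the pair are left out and the explosion neutrophil-like point rests on 3 cells. The monocyte-like cluster 6, in which dendritic cells were the runner-up name, lies below 1 in both libraries, at 0.585 and 0.474. Control neutrophil-like cells lie at 2.61.

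Between the libraries S100a8 and S100a9 had no common direction over the 8 compared classes. The median log2 ratio of explosion over control was -0.06 for S100a8 and -0.12 for S100a9. In cluster 6, which both libraries filled with over 300 cells, S100a8 stood at 61.4 CPM in explosion and 69.0 CPM in control cells (ratio 0.890, 0.593 to 1.32) and S100a9 at 35.9 and 32.7 CPM (1.10, 0.628 to 1.89), so a difference was not detectable at this depth. In all monocyte-like cells S100a9 was lower, at 46.7 against 96.7 CPM, but without clusters 1 and 28 the log2 ratio was 0.14. Cells with at least 5 UMIs of the pair, 5 in the explosion and 9 in the control library, held 29 of 147 and 252 of 383 monocyte-like UMIs. Without such cells the monocyte-like ratio of S100a9 was 1.54 (1.06 to 2.23), and the median log2 ratio of S100a9 over the 8 classes was 0.59. T-like cells stood out with 48.6 CPM of S100a8 in explosion and 8.18 CPM in control cells, a ratio of 5.93 (3.29 to 10.9), and 56.6 against 16.4 CPM of S100a9, a ratio of 3.46 (2.15 to 5.55). In T-like cells 32.9% of the 8363 genes with at least 30 UMIs were at least 2-fold higher with an interval that excluded 1. Only 36 of the 1354 explosion T-like cells had a UMI of the pair, and 3 of them held 29 of its 65 UMIs. Without cells of 5 or more UMIs the S100a8 ratio was 3.97 (2.04 to 7.69) and that of S100a9 1.59 (0.833 to 2.88), and with T cells taken by a marker gate the log2 ratios were -0.20 and -1.27. The 20 neutrophil markers summed to 107 CPM in explosion and 67.8 CPM in control T-like cells, with 6 and 8 of them at 0 (Ngp, Fpr1, Stfa2, Mpo and Prtn3 in both), and the 20 macrophage markers to 592 and 308 CPM. Their part in the T-like result was not tested.

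S100a1, an EF-hand protein that regulates calcium handling in muscle, was highest in mesothelial-like cells and some, not all, epithelial classes of these lungs. Its control level was highest in type 1 alveolar-like cells, the flat cells through which gas passes, at 384 CPM (302 to 482), a class with only 5 explosion cells. Mesothelial-like cells, the lining of the pleura, followed with 78.9 CPM in explosion and 197 CPM in control cells. Secretory-like cells had 101 and 129 CPM and ciliated-like cells 73.2 and 111 CPM, while macrophage-like cells had 2.71 and 7.02 CPM. Type 2 alveolar-like cells, also an epithelium, had only 15.5 CPM (1 UMI) in explosion and 20.8 CPM (8 UMIs) in control cells. Control blood endothelial-like cells had 35.5 CPM. S100a1 was lower after the explosion by 2.50-fold (1.96 to 3.23) in mesothelial-like cells and by 1.29-fold (1.05 to 1.58) in secretory-like cells. Its pattern over classes was most like that of Gsta4, a glutathione transferase (r = 0.90), and of the epithelial keratin genes Krt8 and Krt18 (r = 0.88 and 0.87).

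S100a4, also called metastasin and known for binding nonmuscle myosin, was highest in monocyte-like and ILC2-like cells but not confined to them. In the explosion library monocyte-like cells had 1281 CPM (1228 to 1335) and ILC2-like cells, group 2 innate lymphoid cells, 1195 CPM (983 to 1439), with overlapping intervals. In the control library ILC2-like cells had 2746 CPM and monocyte-like cells 2610 CPM, again overlapping, and secretory-like cells were the lowest at 50.3 CPM. Macrophage-like cells had 563 CPM in explosion and 1441 CPM in control cells, 2.56-fold lower (2.42 to 2.71). Blood endothelial-like cells had 527 CPM (402 to 679) and 1584 CPM (1447 to 1730). Their intervals overlapped those of macrophage-like cells in both libraries. Mesothelial-like cells had 61.3 and 251 CPM, 4.09-fold lower (3.12 to 5.46). In the monocyte-like cluster 6 the gap was smaller than over all monocyte-like cells, with 1278 CPM in explosion and 1696 CPM in control cells, 1.33-fold lower (1.22 to 1.44), against 2.04-fold (1.94 to 2.14). Fibroblast-like cells, for which S100a4 is often used as a marker, had only 180 and 222 CPM, well below monocyte-like cells of both libraries. Ramp1, a receptor partner protein, had the pattern most like S100a4 (r = 0.92).

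S100a6, S100a10 and S100a11 had lower explosion than control levels in 8 of 8 compared classes, each with an interval below a ratio of 1. Of these 3 genes S100a10 turned to the other side in other settings, in B-like cells of at least 500 UMIs (log2 ratio 0.46) and in secretory-like cells at a finer clustering (0.14). S100a6, or calcyclin, was highest in the explosion library in macrophage-like cells, at 1588 CPM (1536 to 1642), and in the control library in type 1 alveolar-like cells, at 5588 CPM (5259 to 5932), followed by macrophage-like cells at 5019 CPM and mesothelial-like cells at 5006 CPM, which did not differ beyond their intervals. S100a10, the light chain that binds annexin A2, was highest in explosion monocyte-like cells, at 879 CPM, ahead of macrophage-like cells at 709 CPM and mesothelial-like cells at 548 CPM. In the control library it was highest in type 1 alveolar-like cells, at 3853 CPM, ahead of mesothelial-like cells at 2273 CPM and monocyte-like cells at 1729 CPM. S100a11, or calgizzarin, was highest in macrophage-like cells of both libraries, at 3240 and 7468 CPM. Among the 8 compared classes the widest gaps were in mesothelial-like cells, where S100a6 was 4.40-fold (4.14 to 4.69), S100a10 4.15-fold (3.79 to 4.55) and S100a11 3.83-fold (3.46 to 4.24) lower. Macrophage-like cells had S100a6 3.16-fold (3.06 to 3.27), S100a11 2.31-fold (2.25 to 2.36) and S100a10 2.2-fold (2.09 to 2.31) lower. The libraries filled the macrophage-like clusters unequally. Within cluster 5 these genes were 2.77-fold, 1.72-fold and 1.95-fold lower, and within cluster 17 they were 5.92-fold, 4.51-fold and 1.66-fold lower. Secretory-like cells showed the same direction with smaller gaps, 1.46-fold (1.35 to 1.59) for S100a6, 1.39-fold (1.01 to 1.96) for S100a10 and 1.31-fold (1.18 to 1.44) for S100a11. Over the 8 classes the median log2 ratio was -1.09 for S100a6, -1.03 for S100a10, -1.14 for S100a11 and -0.81 for S100a4. With called doublets kept these medians were -1.90, -1.57, -2.05 and -1.45.

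**Figure D3:**
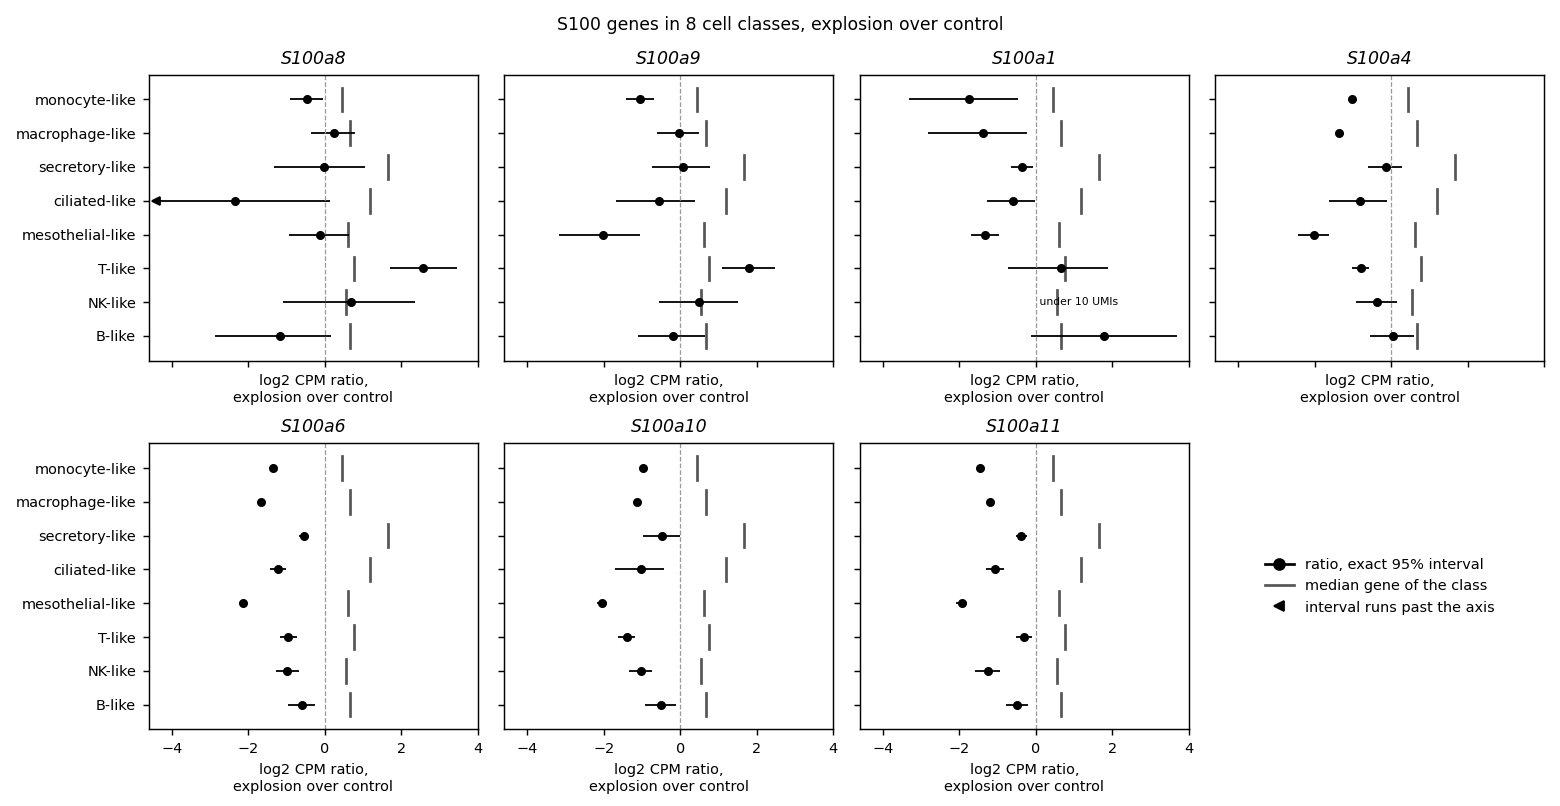
log2 ratio of CPM, explosion over control, for each S100 gene in 8 cell classes with exact 95% intervals, and the ratio of the median gene of each class as a vertical tick. S100a6, S100a10 and S100a11 lie below 0 in all 8 classes, and S100a8 and S100a9 lie above 0 in T-like cells, at 2.57 and 1.79.

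Lower levels were also found in clusters that both libraries filled, which not every class had. In clusters with at least 100 cells of each library, S100a6 and S100a11 were lower with an interval below 1 in 10 of 10, S100a10 in 8 of 10 and S100a4 in 7 of 10. Of these, clusters 3, 9, 11, 14 and 20 were each a whole class, so the counts partly repeat the class results. Cluster 12, led by Mki67 and Top2a, was unnamed. Mesothelial-like, T-like and B-like cells had no cluster with at least 100 cells of each library, so their gaps were not checked within a cluster. Clusters 5, 6 and 17 were parts of a class, and there S100a4, S100a6, S100a10 and S100a11 were each lower with an interval below 1. Of these genes only S100a6 and S100a11 had such intervals in cluster 2, which held 677 of 719 explosion secretory-like cells. In macrophage-like cluster 5 S100a6 stood at 1655 CPM in 1624 explosion cells and 4582 CPM in 115 control cells. In cluster 17, macrophage-like cells with C1qa and Cd163, it stood at 287 and 1699 CPM, 5.92-fold lower (4.06 to 8.98). Blood endothelial-like cells of cluster 3 had 975 and 3577 CPM of S100a6 and 554 and 2268 CPM of S100a11. Fibroblast-like cells had 842 and 2348 CPM of S100a6 and 405 and 1107 CPM of S100a11. At equal depth of 500 UMIs per cell, 49.0% (46.6 to 51.3) of explosion and 80.9% (80.1 to 81.7) of control macrophage-like cells had a UMI of S100a6, and 39.2% and 87.2% of mesothelial-like cells. Without thinning the macrophage-like shares were 67.9% and 96.6%. Thinning left out 213 of 1993 explosion macrophage-like cells and 2809 of 3853 explosion monocyte-like cells, and no control cell.

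**Figure D4:**
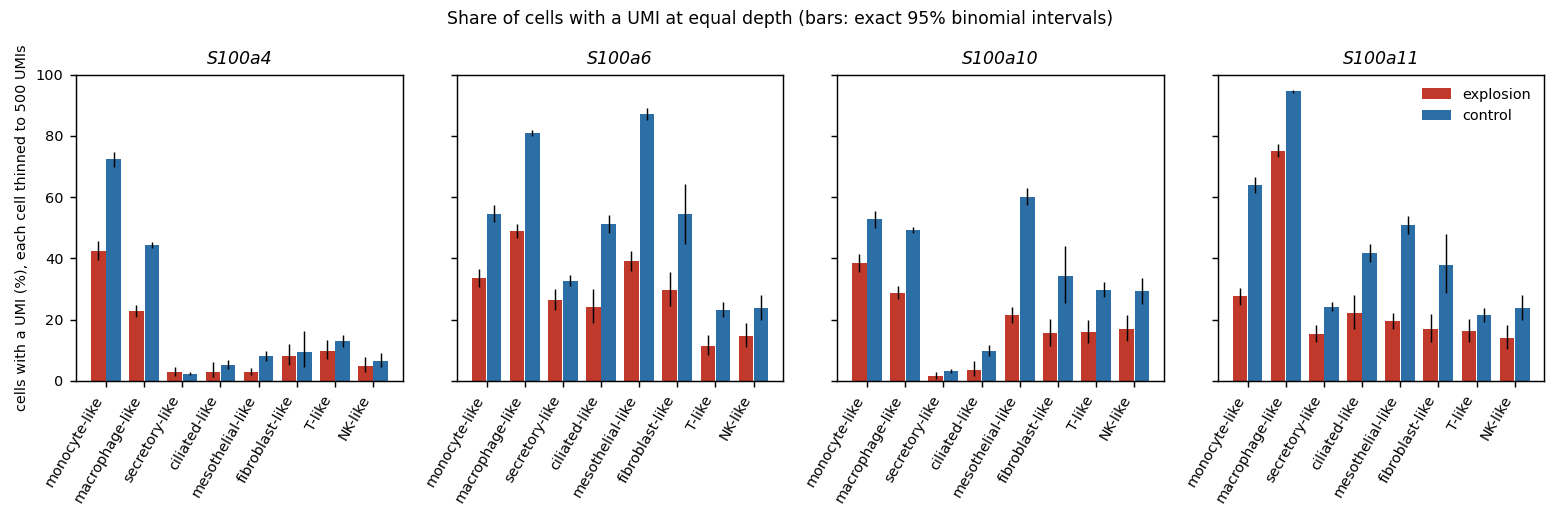
Share of cells (%) with at least 1 UMI of S100a4, S100a6, S100a10 and S100a11 after every cell was thinned to 500 UMIs, explosion left of control, with exact 95% binomial intervals. In macrophage-like cells the shares for S100a11 are 75.2% in explosion and 94.6% in control cells, and in monocyte-like cells those for S100a4 are 42.4% and 72.3%. Thinning left out 2809 explosion monocyte-like cells and no control one. Before thinning, explosion monocyte-like cells sat mostly in cluster 1 and control ones in cluster 28, so the shares compare different mixes of monocyte-like cells.

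Against all genes, the S100 genes stood on the low side. In macrophage-like cells 5 of the 7 were at least 2-fold lower with an interval excluding 1, where 6.44% of 13390 genes were, and in mesothelial-like cells 6 of 7, where 11.8% were. The count was 5 of 7 in monocyte-like cells (10.1% of genes), 3 of 7 in ciliated-like cells (5.31%), 0 of 7 in secretory-like cells (2.2%), 1 of 6 in T-like cells (7.46%), 2 of 5 in NK-like cells (8.3%) and 0 of 6 in B-like cells (9.48%). In blood endothelial-like cells it was 4 of 4 (20.4%) and in fibroblast-like cells 3 of 4 (15.6%), both classes with under 200 control cells, and genes under 30 UMIs were left out of these counts. In the higher direction S100a8 and S100a9 in T-like cells were the only S100 genes past the fold, where the share of all genes was 24.9% in monocyte-like, 35.4% in ciliated-like, 55.3% in secretory-like, 21.7% in NK-like, 24% in B-like, 26.5% in fibroblast-like and 19.8% in blood endothelial-like cells. The median gene of a compared class was higher in the explosion library by a log2 ratio of 0.44 (monocyte-like) to 1.66 (secretory-like). Genes that stayed under 20 UMIs in either library did not enter this median. Over all genes tested the medians were lower in each of the 8 classes, from 0.38 (B-like) to 1.39 (secretory-like). Scaling by these lower medians was not run, so the calls on the relative scale depend on the filtered median. Summed over the 8 classes, with a gene counted anew in each class, 25846 calls were past the fold in the higher and 5592 in the lower direction. These turned to 7146 and 16097 when ratios were taken relative to the median gene. On that scale 7 of 7 S100 genes were past the fold in the lower direction in secretory-like cells, beside 23.5% of all genes, and the medians over classes were -2.00 for S100a6, -1.96 for S100a10 and -1.89 for S100a11. Ribosomal protein genes moved the same way, with medians of the log2 ratio between -1.52 (monocyte-like) and -0.61 (secretory-like). The 13 secretory markers, which macrophages should lack, summed to 4840 CPM in explosion and 17575 CPM in control macrophage-like cells. Their part in the lower S100 levels was not tested.

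**Figure D5:**
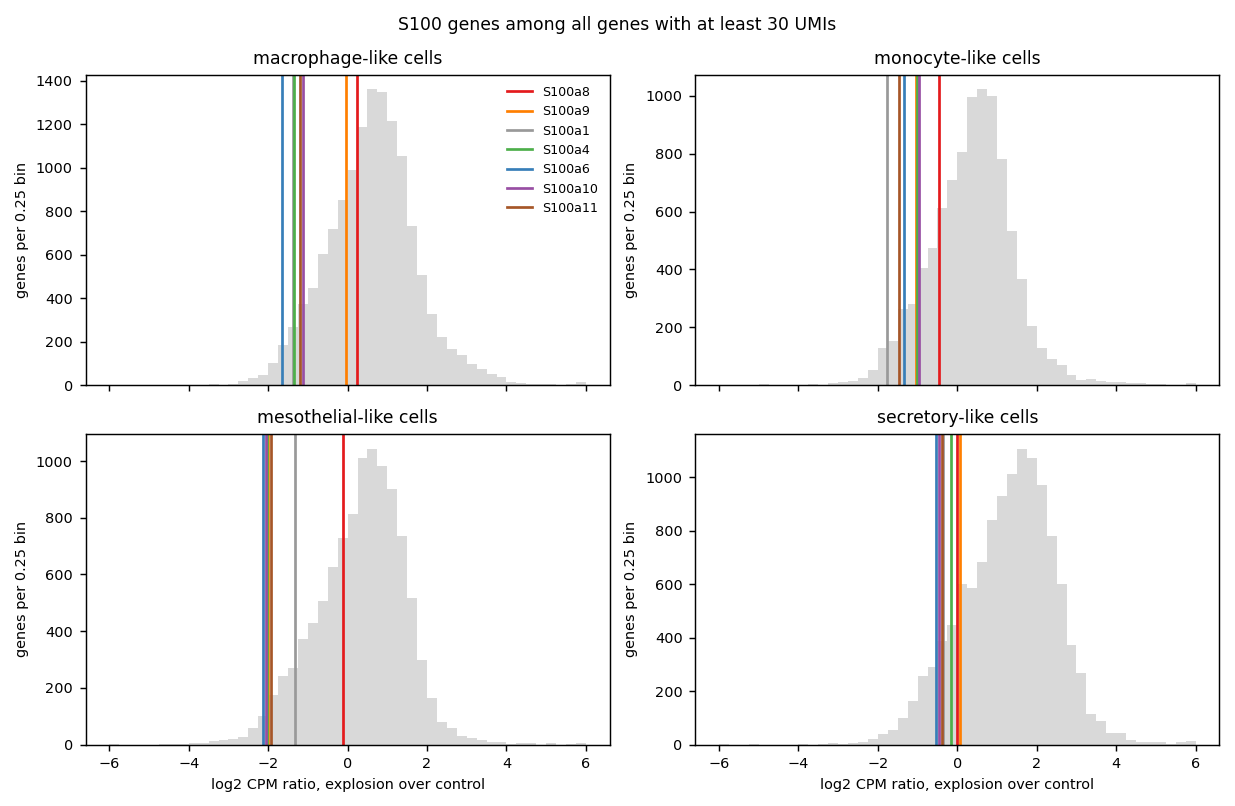
Number of genes per 0.25 bin of the log2 ratio of CPM, explosion over control, among genes with at least 30 UMIs and at least 1 UMI in each library, in 4 cell classes, with the S100 genes as vertical lines. S100a6 lies at -1.66 in macrophage-like and -2.14 in mesothelial-like cells, on the low side of the bulk of genes.

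Promoters of 4 of the 7 genes were listed in RefSeq on build GRCr8, and they are shown because S100a6 and S100a11 were lower in 8 of 8 classes and S100a4 in 5 of 8, while S100a9 was highest in control neutrophil-like cells. S100a4 had intervals that included a ratio of 1 in B-like, NK-like and secretory-like cells. Each runs over the 250 bases before the annotated start, 5' to 3' on the gene's strand, for S100a9 at chr2:178490623-178490872 (minus strand), S100a4 at chr2:178388279-178388528, S100a6 at chr2:178398287-178398536 and S100a11 at chr2:181874882-181875131 (plus strand). Capitals mark every match, on both strands, to TATAAA (the TATA box), GAGGAA (the core bound by PU.1), TTGCNNAA (C/EBP) or TGANTCA (AP-1), none of which overlapped another.
S100a9: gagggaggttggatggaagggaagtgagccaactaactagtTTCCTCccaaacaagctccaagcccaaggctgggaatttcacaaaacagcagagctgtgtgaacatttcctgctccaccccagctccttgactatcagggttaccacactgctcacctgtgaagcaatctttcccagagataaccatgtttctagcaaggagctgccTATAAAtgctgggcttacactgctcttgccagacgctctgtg
S100a4: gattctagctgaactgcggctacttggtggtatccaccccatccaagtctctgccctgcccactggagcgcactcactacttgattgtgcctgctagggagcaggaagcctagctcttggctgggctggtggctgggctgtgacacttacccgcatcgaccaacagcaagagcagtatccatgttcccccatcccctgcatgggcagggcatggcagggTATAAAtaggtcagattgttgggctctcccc
S100a6: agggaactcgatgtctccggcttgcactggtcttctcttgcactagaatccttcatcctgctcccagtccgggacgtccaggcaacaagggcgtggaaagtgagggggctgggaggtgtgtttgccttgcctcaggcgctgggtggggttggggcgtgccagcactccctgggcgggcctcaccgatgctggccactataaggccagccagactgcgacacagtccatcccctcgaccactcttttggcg
S100a11: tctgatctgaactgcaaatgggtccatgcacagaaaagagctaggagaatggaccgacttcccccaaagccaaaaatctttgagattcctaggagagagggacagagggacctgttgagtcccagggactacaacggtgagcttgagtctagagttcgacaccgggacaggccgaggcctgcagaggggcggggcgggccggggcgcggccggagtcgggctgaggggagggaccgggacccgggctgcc
S100a9 held TATAAA 42 bases before the start and GAGGAA, read on the other strand, 209 bases before it, and S100a4 held TATAAA 31 bases before its start. S100a6 and S100a11 held no match to these letters in the window and were richer in G and C, at 62.4% and 62% against 50.4% for S100a9 and 57.6% for S100a4. Of 33469 promoters of the same length 12.9% held TATAAA, 23.3% GAGGAA, 9.22% TTGCNNAA and 6.34% TGANTCA. RefSeq lists 5 pseudogenes and 2 like genes of S100a11 and 1 pseudogene of S100a10, none of which is a row of the matrices, so the counts of these 2 genes are uncertain where reads could match a copy.

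Of 10 further S100 genes in the files, S100a13, S100a14, S100a16 and S100g reached 100 CPM in a class. S100g, a vitamin D-dependent calcium-binding protein, did so in type 2 alveolar-like cells, at 325 CPM in 93 explosion and 296 CPM in 158 control cells, a ratio of 1.10 (0.653 to 1.76). S100a16 was highest in blood endothelial-like cells, at 281 CPM in explosion and 554.8 CPM in control cells, a ratio of 0.507 (0.336 to 0.742). Control type 1 alveolar-like cells had 519 CPM of S100a16. Its levels were 153 CPM in explosion and 222 CPM in control secretory-like cells. Mesothelial-like cells had 89.8 and 262 CPM of S100a16, 0.343 times the control level (0.270 to 0.431). S100a13 was highest in control blood endothelial-like cells, at 168 CPM, against 26.4 CPM (3 UMIs) in explosion cells of that class. It had 46.3 and 122 CPM in secretory-like cells, a ratio of 0.379 (0.277 to 0.507). S100a14 had 94.6 and 136 CPM there, a ratio of 0.696 (0.561 to 0.853). In macrophage-like cells 5 of the 10 had at least 30 UMIs, 2 of them were past 2-fold lower (6.44% of all genes) and 0 higher (32.1%), and in mesothelial-like cells both tested genes were lower (11.8%).

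Binding partners and receptors of the family did not share one direction. Of 26 listed genes 22 had at least 30 UMIs in macrophage-like cells, where 11 were at least 2-fold higher (32.1% of all genes) and 0 lower, with a median log2 ratio of 0.90 against 0.65 over all genes tested. Ahnak, a large scaffold protein bound by S100a10 and annexin A2, had 2401 CPM in explosion and 949 CPM in control macrophage-like cells, a ratio of 2.53 (2.46 to 2.60). Itgam, the integrin chain CD11b, had the highest ratio, 10.3 (7.12 to 14.7), at 20.3 and 1.97 CPM, followed by the calcium channel gene Ryr1 at 5.10 (2.99 to 8.31). The 15 monocyte markers summed to 791 CPM in explosion and 254 CPM in control macrophage-like cells. Cluster 17, the macrophage-like cells with C1qa and Cd163, held 179 of 1993 explosion and 126 of 8843 control cells of the class. The part of monocyte RNA and of this mix in the Itgam ratio was not tested. Cacybp, the calcyclin-binding protein, had the lowest at 0.549 (0.467 to 0.642), with 72.7 and 132 CPM, followed by Bsg, the cell surface protein basigin, at 0.682 (0.625 to 0.742). Anxa2 and the receptors Tlr4 and Ager are given for their roles, chosen after their values were seen. Anxa2, the partner of S100a10, stood at 819 CPM in explosion and 827 CPM in control macrophage-like cells, a ratio of 0.991 (0.945 to 1.04) with no difference detectable at this depth, while S100a10 itself was at 709 and 1557 CPM. Tlr4 had 40.2 and 13.8 CPM, a ratio of 2.91 (2.31 to 3.62), and Ager, whose defining site in the lung is the type 1 alveolar cell, was at 10.4 and 2.39 CPM.

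In mesothelial-like cells 19 partners were tested, of which 3 were higher (27.2% of all genes) and 5 lower (11.8%). Bsg had 2588 CPM in explosion and 5436 CPM in control cells, a ratio of 0.476 (0.456 to 0.497), and Anxa1, a partner of S100a11, 926 and 2043 CPM, a ratio of 0.453 (0.421 to 0.486). Myh10 and Myh9, the nonmuscle myosin heavy chains, had the highest ratios, 4.13 (3.66 to 4.66) and 2.83 (2.53 to 3.17). Over classes and libraries S100a6 was itself most like Uqcr11, Chmp5 and Anxa1 (r = 0.85, 0.84 and 0.84), S100a10 most like Ybx1 (r = 0.90) and S100a11 most like Cstb, Fth1 and Prdx5 (r = 0.95, 0.94 and 0.94).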

How the data were processed

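Rat lung cells were measured in 2 single-cell libraries. The deposited matrices hold raw UMI counts as whole numbers, which per the file headers came from cellranger 7.1.0. Per the submitters' processing notes, bcl2fastq 2.20 and Cell Ranger 6.1.1 were used. Those notes list mRatBN7.2 beside rn6 with no role for either build. Cells needed 200 genes and no more than 25% mitochondrial UMIs. Called doublets (Scrublet in scanpy 1.11.5, 597 explosion, 4.80%, and 1853 control, 8.79%) were removed. Clusters came from 2000 variable genes without S100 genes, 30 components, 15 neighbours and Leiden at resolution 1 (seed 1).

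A cluster was named from markers when at least 3 were detected, that is 2-fold above other clusters in at least 5% of its cells; 264 of 268 were found. UMIs were summed per class and library. Levels have exact Poisson, shares exact Clopper-Pearson and ratios exact conditional intervals at the 95% level (scipy 1.17.1), and PCR or free RNA error is not in them. A ratio needed 10 UMIs over both libraries, a count past the fold 30 UMIs, the median gene 20 UMIs in each library. A count of 0 is given as the limit that 3 counts allow. Thinning took 500 UMIs per cell. Likeness is Pearson's r of log2(CPM + 10). The ratio procedure was run on simulated Poisson counts of whole classes. Those hold no spread between cells, so the run does not check intervals where few cells hold most UMIs. From the lists of partners, further S100 genes and granule genes, the highest in a class and the 2 highest and 2 lowest ratios were named. The members and lists were chosen with earlier results of these data known.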

Additional observations from a re-analysis of the deposited data

Results flagged for a closer look

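The ratios of S100a8 and S100a9 pointed in opposite directions in different classes, with intervals on opposite sides of a log2 ratio of 0, and the difference between the classes was not tested. For S100a8 the log2 ratio of explosion over control was 2.57 in T-like cells and -0.47 in monocyte-like cells. For S100a9 it was 1.79 in T-like cells, -2.01 in mesothelial-like cells and -1.05 in monocyte-like cells. These directions depended on the setting: without cells of at least 5 UMIs of the pair the monocyte-like values were 0.18 for S100a8 and 0.62 for S100a9, and by marker gate the T-like values were -0.20 and -1.27. The mesothelial-like value rests on 9 explosion and 139 control UMIs, and 3 control mesothelial-like cells with at least 5 UMIs of S100a8 and S100a9 held 124 of the 214 control UMIs of the pair. Without cells of at least 5 UMIs the mesothelial-like ratio of S100a9 was 0.465 (0.179 to 1.02).

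Explosion barcodes below the cell filters, which no comparison used, had 364.9 CPM of S100a8 and 921.9 CPM of S100a9, above the 0 and 49.1 CPM of the control barcodes below the filters.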

How the results depend on the processing

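Of 652 ratios of a gene in a class under another setting, 507 stayed within the counting interval and direction, 137 moved beyond it and 8 reversed. Taken relative to the median gene, the medians over classes were -1.17 for S100a9, -1.94 for S100a1, -1.68 for S100a4, -2.00 for S100a6, -1.96 for S100a10 and -1.89 for S100a11. Scaling by the lower median over all genes tested was not run. Calls past the fold, summed over classes with a gene counted anew in each, were then 7146 higher and 16097 lower. With totals without Scgb1a1, Rn45s, mitochondrial rRNA and ribosomal protein genes, S100a4 was -1.19, S100a6 -1.43 and S100a11 -1.39. With called doublets kept, S100a4 was -1.45, S100a6 -1.90, S100a10 -1.57 and S100a11 -2.05. With a marker gate, S100a9 was -1.57 and S100a4 -1.11. Without cells of 5 or more S100a8 and S100a9 UMIs, a setting chosen after seeing the data, S100a9 was 0.59. The median of S100a6, S100a10 and S100a11 stayed negative under all these settings. The cause of these shifts was not tested.

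Reversed log2 ratios were 0.46 for S100a10 in B-like cells of at least 500 UMIs, 0.10 for S100a8 in thinned monocyte-like cells, 0.14 for S100a10 in secretory-like cells at resolution 2, and -0.20 and -1.27 for S100a8 and S100a9 in T-like cells by marker gate. Chosen after seeing the data were the settings without monocyte clusters 1 and 28, where S100a9 in monocyte-like cells was 0.14, and without cells of 5 or more UMIs, where S100a8 and S100a9 in monocyte-like cells were 0.18 and 0.62.

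No paired analysis was possible because each group has 1 library, and no library was left out in turn. Depth limits S100a8, S100a9 and S100a1 most in the explosion library, where 5580 kept cells had under 500 UMIs.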
